A study of Arabidopsis thaliana with 6 samples.

Results

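Expansins are small secreted proteins that loosen the plant cell wall. The superfamily was taken as 36 named loci of Arabidopsis thaliana (thale cress), namely EXPA1 to EXPA26, EXPB1 to EXPB6, EXLA1 to EXLA3 and EXLB1, of 24438 genes in the table. Of the 36, 27 had a row and 9 had none (EXPA2, EXPA19, EXPA22 to EXPA26, EXPB4 and EXPB5) and count as not detected, EXPA19 being annotated as a pseudogene, and 25 passed the filter on low values described below. By subfamily, rows were found for 19 of 26 EXPA, 4 of 6 EXPB, 3 of 3 EXLA and the 1 EXLB gene.

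Levels were measured by RNA sequencing of roots of wild-type plants of the ecotype Columbia at the vegetative stage, with 2 libraries in each of 3 groups. The control group had no aluminium treatment named in its labels, the nanoparticle group received aluminium oxide particles (nAl2O3), and the ion group received ionic aluminium. The labels of nanoparticle replicate 2 other than its title spell the compound nAl2O4. The sources used here give no dose, exposure time or growth medium. They do not state whether both libraries of a group were grown separately, so the p-values speak only of library-to-library spread, which may be technical. The series set out to compare the root's molecular response to the particulate and the dissolved form.

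Alpha-expansins (EXPA) and beta-expansins (EXPB) bind wall polysaccharides and let cellulose and its tethers slip past each other, without cutting them, when the wall is acidified by plasma membrane proton pumps. Growing root cells and elongating root hairs use different members. The expansin-like genes (EXLA and EXLB) encode proteins with the same pair of domains, for which wall-loosening activity has not been shown. Aluminium ions stop root elongation and bind wall pectin and the hemicellulose around cellulose.

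Libraries held 12318429 to 14489392 reads. ALMT1, which encodes the malate channel that detoxifies aluminium ions outside the root, stood at 246 and 231 RPKM in the ion libraries and at 0.906 to 1.34 in the other 4. RPKM divides a gene's reads by its length and by the depth of the library, so levels can be set side by side between genes. All 7 root markers were present in every library (summed RPKM 1055 to 1587), among them PYK10 at 816 RPKM or more. Control replicate 2 stood apart from control replicate 1, with a within-group SD of 0.45 in control on the log2(RPKM + 1) scale against 0.19 in nanoparticle and 0.298 in ion. It was the lower control library for 21 of 25 tested expansins, and 12 of the 25 (48%) were at least 2 times higher in control replicate 1, against 11.3% of all tested genes.

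**Figure D1:**
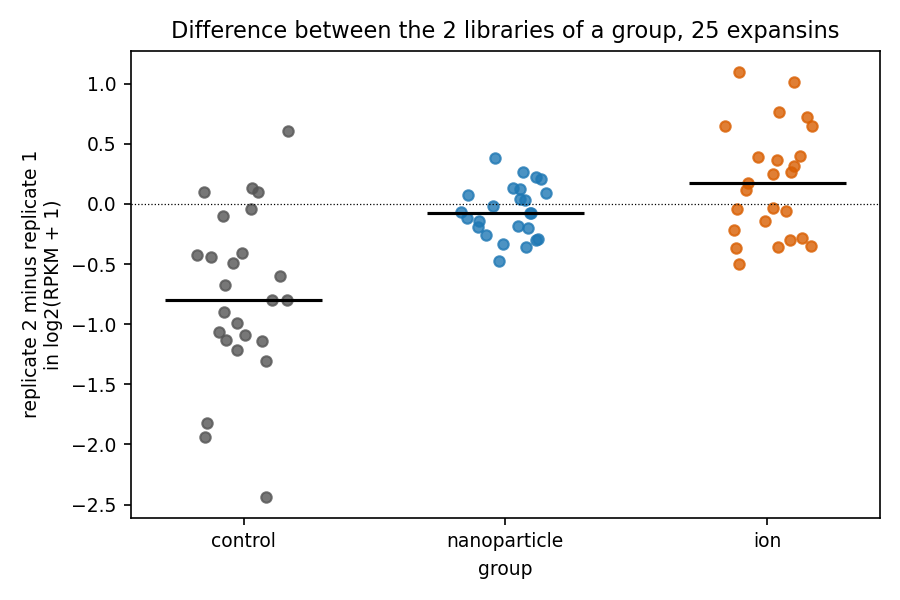
Each point is 1 of 25 expansins, plotted as its level in replicate 2 minus replicate 1 of the same group in log2(RPKM + 1), and the black lines are medians. The control medians lie at -0.8, the nanoparticle medians at -0.08 and the ion medians at 0.18.

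Roots expressed a graded set of expansins, led by EXPA4 and EXPB3. EXPA4 stood at 152 and 86.8 RPKM in control, 152 and 144 in nanoparticle and 156 and 150 in ion. EXPB3 stood at 88.8 and 65.8 in control, 89 and 84.4 in nanoparticle and 86.6 and 112 in ion. Together with EXPA9 and EXPA15 these genes made up 51% to 56.4% of the summed expansin RPKM of a library. In control the next ranks were EXPA9 (51.2 ± 10.4 RPKM, mean ± SD, n = 2), EXPA15 (38.5 ± 22.3), EXPA1 (33.8 ± 1.72), EXPA14 (32.2 ± 17), EXPA17 (29.8 ± 18.4), EXLB1 (24.5 ± 7.37) and EXPA6 (22.1 ± 0.521). From EXPA9 to EXPA6 the control libraries of neighbours in this order overlapped. EXPB3 lay apart from EXPA9 below it, and EXPA6 from EXPA13 (17.9 ± 4.41). Below EXPA13 neighbours overlapped down to EXPA21, which lay apart from EXPA5, and EXPA5 from EXPB6. In the nanoparticle libraries EXPA4 and EXPB3 kept the first ranks, while in the ion libraries EXPA15 (167 ± 21.7) and EXPA4 (153 ± 4.22) overlapped at the top and EXLB1 (96.4 ± 30.4) overlapped EXPB3 (99.4 ± 18.1).

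At the lower end, 8 members stayed under a group mean of 5 RPKM everywhere. EXPA5 had 1 read in each control library, 1 and 3 in nanoparticle and 0 in ion. EXPB6 had 1 read in nanoparticle replicate 1 and 0 elsewhere, so neither gene was tested. The genes EXPA21 to EXPA26 lie close together on the minus strand of chromosome 5 (TAIR10.1, from base 15726243 to 15740605), and EXPA21 was the member of that row with values, at 0.296 and 0.392 RPKM in control. Within the cluster EXPA23 and EXPA25 share an identical transcript stretch of 248 bases and EXPA22 and EXPA26 one of 208 bases. How reads with several matches were counted is not stated in the sources used here, so any level of these 4 would be uncertain. Among members with values, the longest shared stretch was 57 bases, between EXLA1 and EXLA3.

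**Figure D2:**
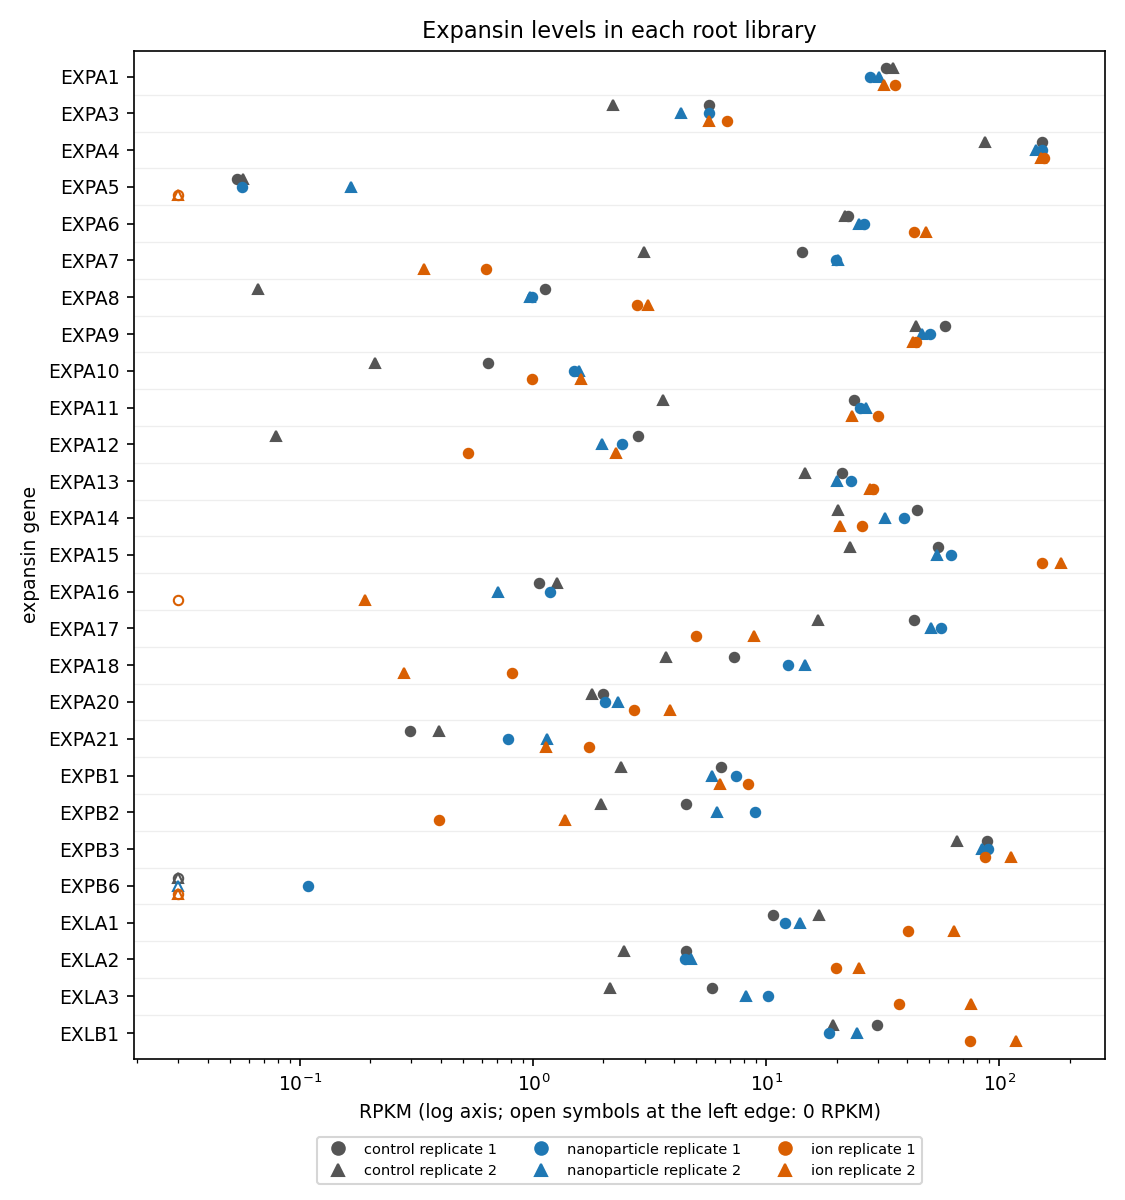
RPKM of the 27 expansins with a row in each of the 6 libraries, on a log axis. Colours mark the group, circles replicate 1 and triangles replicate 2. Both ion libraries lie to the right of the other 4 for EXPA6, EXPA8, EXPA13, EXPA15, EXPA20, EXLA1, EXLA2, EXLA3 and EXLB1, and to the left for EXPA5, EXPA7, EXPA9, EXPA16, EXPA17, EXPA18 and EXPB2.

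In roots given ionic aluminium the expansin-like genes rose, and the alpha-expansins split. Against control, 8 of 25 tested members rose and 4 fell, 13 did not pass, and the member median was 0.64 on the log2 scale against 0.06 over all genes tested. Over all 19648 genes tested 22.6% were called in this comparison, 12.3% higher and 10.3% lower. The test was limma on log2(RPKM + 1) with all 3 groups in 1 fit, and members were called at a Benjamini-Hochberg adjusted p under 0.05 over all genes tested. Genes entered the test when 2 or more libraries reached 1 RPKM. In 11 members both ion libraries lay above both control libraries and in 6 both lay below, against 34.0% and 27.7% of all genes tested. The calls depended on single libraries, and without ion replicate 2 only those of EXLA2 and EXLA3 held. Without either ion library fewer members were called, and fewer of all genes were too, so the losses are not particular to expansins.

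All 4 expansin-like genes were higher in both ion libraries than in the other 4 libraries. EXLA3 (AT3G45960) stood at 5.85 and 2.13 RPKM in control, 10.2 and 8.16 in nanoparticle and 37 and 75.8 in ion. It rose 14.1-fold against control as a ratio of means (log2 fold change 3.54 ± 0.45, moderated SE; limma adjusted p = 0.0028). The libraries of both groups differed by more than 2-fold, and the groups did not overlap. The ratio was 9.27 without ion replicate 2 and 26.4 without control replicate 1. Its neighbour EXLA1 (AT3G45970) went from 10.7 and 16.8 RPKM in control, with 12 and 14 in nanoparticle, to 40.5 and 63.9 in ion. EXLA1 rose 3.8-fold (1.85 ± 0.29, limma adjusted p = 0.00645). The pair lies on the plus strand of chromosome 3 in TAIR10.1, EXLA3 at 16892702 to 16894153 and EXLA1 at 16896166 to 16897308, with coding sequences 86% identical, so some reads could be assigned to either.

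EXLA2 (AT4G38400), on chromosome 4 at 17978422 to 17979740, stood at 4.5 and 2.45 RPKM in control, 4.46 and 4.75 in nanoparticle and 19.8 and 24.9 in ion. It rose 6.44-fold (2.42 ± 0.27, limma adjusted p = 0.00178), with the lowest adjusted p among the expansins in this comparison. EXLA2 was far above its control and nanoparticle levels in each ion library. EXLB1 (AT4G17030), the sole Arabidopsis gene of its subfamily, stood at 29.7 and 19.3 RPKM in control, 18.6 and 24.5 in nanoparticle and 74.9 and 118 in ion, a 3.93-fold rise (1.93 ± 0.3, limma adjusted p = 0.00645). The nanoparticle libraries lay within or beside the control range for EXLA1, EXLA2 and EXLB1. Summed, the 4 genes reached 172 and 282 RPKM in ion against 40.7 to 51.4 in the other libraries, and they held 21.4% and 29.5% of the summed expansin RPKM in ion against 6.86% to 10.5% elsewhere. The calls of EXLA1 (1.52, adjusted p = 0.052) and EXLB1 (1.6, adjusted p = 0.0535) were lost without ion replicate 2, and those of EXLA2 and EXLA3 held under all 15 alternatives run.

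**Figure D3:**
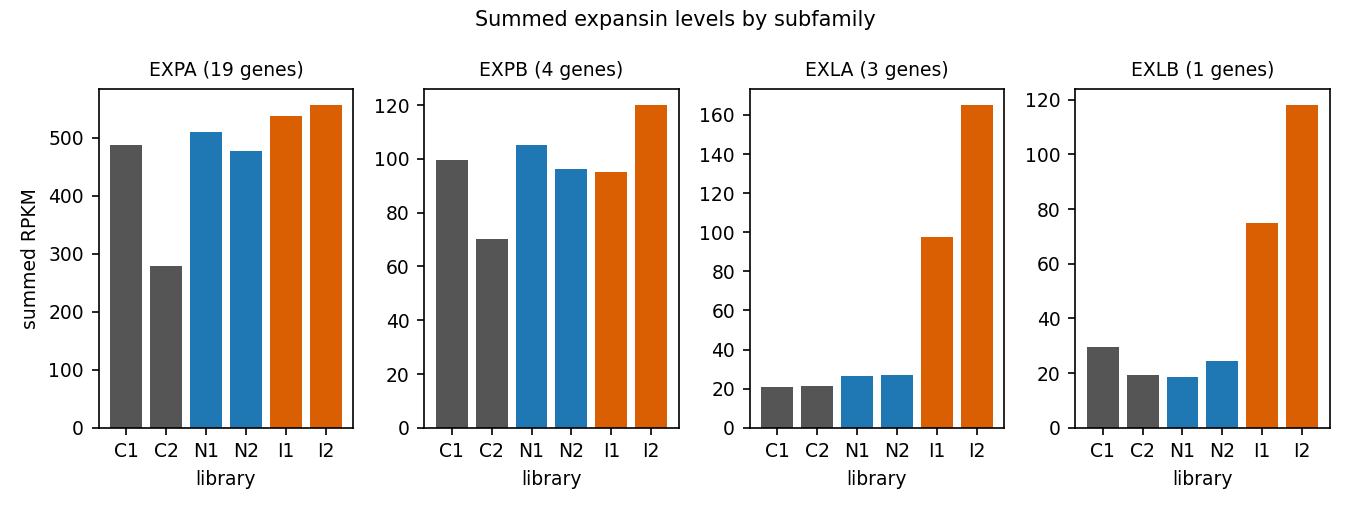
Summed RPKM of the expansins with a row, by subfamily, in each library (C control, N nanoparticle, I ion, each axis starting at 0). EXLA sums were 97.4 and 165 in ion against 21.1 to 26.9 elsewhere and the EXLB1 level was 74.9 and 118 against 18.6 to 29.7, while EXPA sums were 537 and 556 in ion and 278 to 509 elsewhere.

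Among the alpha-expansins EXPA15 was the most abundant gene to rise. EXPA15 (AT2G03090), on the minus strand of chromosome 2 at 916806 to 918671, stood at 54.3 and 22.8 RPKM in control, 62 and 53.7 in nanoparticle and 152 and 183 in ion. It rose 4.34-fold (2.21 ± 0.38, limma adjusted p = 0.00856), and its lowest ion library was above its highest other library. Without control replicate 1 the ratio was 7.34. The call was lost without ion replicate 1 (2.34, adjusted p = 0.0562) and without ion replicate 2 (2.08, adjusted p = 0.0743).

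EXPA6 (AT2G28950) had 22.5 and 21.8 RPKM in control, 26.2 and 25 in nanoparticle and 42.8 and 48.5 in ion, a 2.06-fold rise (1.01 ± 0.17, limma adjusted p = 0.00753). Its libraries lay close together within each group, ion apart from the rest, and the call was lost only without ion replicate 2 (0.92, adjusted p = 0.0574). EXPA8 went from 1.12 and 0.0661 RPKM in control, the latter from 1 read, to 2.79 and 3.11 in ion (1.39 ± 0.34, limma adjusted p = 0.0287). EXPA21 went from 0.296 and 0.392 to 1.74 and 1.13 RPKM (0.85 ± 0.24, limma adjusted p = 0.0482), from 9 reads in control and 35 in ion. These 2 calls rest on low values. That of EXPA8 was lost under 6 of 14 alternatives and that of EXPA21 under 12 of 14, among them median-of-ratios scaling and the fit with the replicate number as a block (0.85, adjusted p = 0.0836).

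The alpha-expansins that fell were EXPA7, EXPA18, EXPA17 and EXPA16. EXPA7 and EXPA18 act in root hair cells, where they take part in hair initiation and elongation. EXPA7 (AT1G12560) stood at 14.2 and 2.97 RPKM in control, 19.8 and 20.3 in nanoparticle and 0.629 and 0.34 in ion, where 8 and 5 reads were left. It fell by 2.4 ± 0.56 on the log2 scale (limma adjusted p = 0.0251), 17.8-fold as a ratio of means. Its control libraries differed 4.79-fold, and each was above both ion libraries. The ratio was 6.14 without control replicate 1 and 29.4 without control replicate 2. EXPA18 (AT1G62980) stood at 7.23 and 3.72 RPKM in control, 12.4 and 14.7 in nanoparticle and 0.81 and 0.28 in ion, from 10 and 4 reads. It fell by 2.03 ± 0.32 (limma adjusted p = 0.00648), with no overlap between ion and control, and the ratio of means moved from 10 to 19.5 without ion replicate 1. The call of EXPA7 was lost without either ion library (-2.54 and -2.26), without the filter (adjusted p = 0.053) and with limma-voom on the recovered reads (-3.75, adjusted p = 0.0561), and that of EXPA18 without ion replicate 2 (-1.78, adjusted p = 0.057).

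EXPA7 and EXPA18 are known to carry in their proximal promoters a root hair element, a motif bound by the transcription factors that drive hair growth. The 250 bases before the annotated start of each gene are shown because these 2 genes fell together, and the window of EXPA6, which rose, is set beside them. The sequences are from RefSeq's TAIR10.1 genome, 5′ to 3′ on the strand of the gene. Capitals mark the core of the element, searched on both strands as TG, then 4 or 5 bases of any kind, then CACG. The windows are chr1:4276255-4276504 on the plus strand for EXPA7, chr1:23331313-23331562 on the plus strand for EXPA18 and chr2:12433797-12434046 on the minus strand for EXPA6.
EXPA7: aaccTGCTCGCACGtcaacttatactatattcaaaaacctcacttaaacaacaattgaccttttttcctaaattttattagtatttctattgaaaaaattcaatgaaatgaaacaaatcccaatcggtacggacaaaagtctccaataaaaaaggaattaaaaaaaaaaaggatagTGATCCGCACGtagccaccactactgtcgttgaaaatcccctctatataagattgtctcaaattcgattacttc
EXPA18: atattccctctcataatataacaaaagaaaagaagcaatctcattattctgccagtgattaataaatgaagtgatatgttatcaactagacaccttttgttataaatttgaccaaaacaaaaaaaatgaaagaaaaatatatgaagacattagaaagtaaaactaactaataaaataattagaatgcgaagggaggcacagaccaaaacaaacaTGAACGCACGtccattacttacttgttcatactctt
EXPA6: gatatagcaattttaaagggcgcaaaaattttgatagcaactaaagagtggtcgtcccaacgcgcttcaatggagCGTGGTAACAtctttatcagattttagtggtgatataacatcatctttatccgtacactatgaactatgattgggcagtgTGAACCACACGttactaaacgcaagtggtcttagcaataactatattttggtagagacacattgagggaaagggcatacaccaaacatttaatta

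The core was found in 3 of 35 expansin windows, those of EXPA7, EXPA18 and EXPA6, and in 9% of 27443 windows of all protein-coding nuclear genes. EXPA7 holds TGCTCGCACG from 246 and TGATCCGCACG from 74 bases before its start, and EXPA18 holds TGAACGCACG from 36 bases before its start. The longer published consensus of the root hair element matched in EXPA7 and EXPA18 and in none of the other expansin windows, against 0.8% of all windows. Both genes were already known to carry the element. Their matches to core and consensus were therefore fixed beforehand and are no independent support. The first EXPA7 core overlaps by 1 base a W-box core (TTGAC, both strands searched), a motif of WRKY factors, which was in 14 of 35 expansin windows against 44.9% of all. The phosphate starvation motif P1BS (GNATATNC) was in 1 of 35 expansin windows, that of EXPA8, against 5.5% of all. A W-box core was held by 3 of the 8 members that rose, 2 of the 4 that fell and 3 of the 13 that did not pass. P1BS was held by 1 of the 8 that rose and by 0 of the others tested. These matches describe the letters of the windows and not binding.

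Other root hair genes were low in the same libraries. Of 21 tested members of a root hair list of 24, 0 rose, 11 fell and 10 did not pass in ion against control, at a median of -1.18 on the log2 scale against 0.06 over all genes tested. That is 52.4% of the list called, all lower, where 10.3% of all genes were called lower. The factors RSL4 and RSL2, which set the growth of the hair, fell. RSL4 had 49 and 17 reads in control, 26 and 29 in nanoparticle and none in ion. With a floor of 3 reads over the ion group it was at least 20.7-fold lower there than in control (limma adjusted p = 0.0178). RSL2 went from 4.71 and 9.17 RPKM in control, with 5.49 and 8.11 in nanoparticle, to 0.422 and 0.104 in ion (-2.6 ± 0.34, limma adjusted p = 0.00308). RHD6, which acts before them in setting hair position, did not pass, at 6.71 and 6.63 RPKM in control and 14 and 10.1 in ion (0.75 ± 0.24, limma adjusted p = 0.0685). Against nanoparticle (6.42 and 4.41 RPKM) RHD6 was higher in ion (1.03 ± 0.24, limma adjusted p = 0.0246). It was the 1 gene of the list to rise in that comparison, where 13 fell.

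The wall and cytoskeleton genes of the hair with the largest falls were RHS13 (-4.05 ± 0.46), RHS19 (-3.76 ± 0.35), PRP3 (-3.68 ± 0.24), ADF8 (-3.14 ± 0.21) and XTH14 (-3.11 ± 0.41), at limma adjusted p of 0.00033 to 0.00324. The summed RPKM of the list was 171 and 142 in ion, 355 and 240 in control and 466 and 510 in nanoparticle. The list overlaps what earlier results on these libraries had shown and is not independent of them. In whole roots, fewer hair cells and less RNA per hair cell cannot be told apart. GL2, which represses hair fate, fell too (9.88 and 7.14 RPKM in control, 7.77 and 7.24 in nanoparticle, 4.69 and 3.44 in ion). Its log2 difference was -0.9 ± 0.23 (limma adjusted p = 0.0348). GL2 was the 1 gene called from a list of 3 cell fate genes, where 10.3% of all genes were called lower. The other 2, WER (0.22 ± 0.23) and CPC (0.67 ± 0.39), leaned higher and did not pass (limma adjusted p of 0.509 and 0.251).

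**Figure D4:**
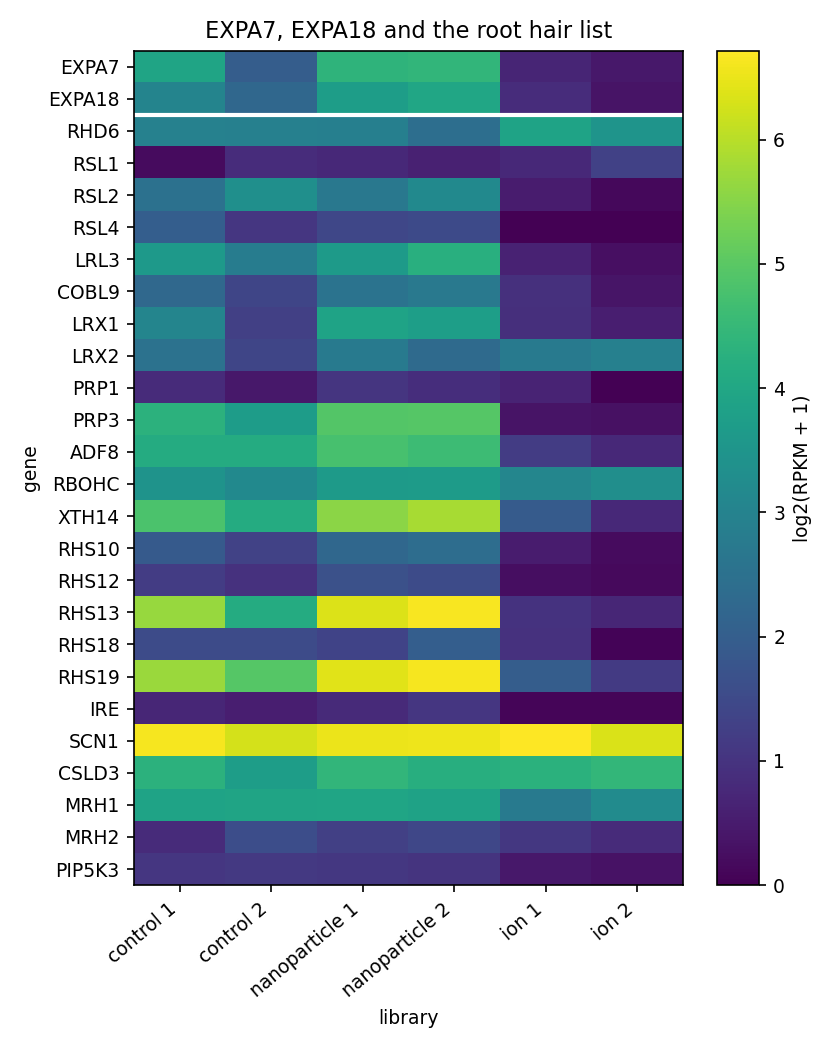
Levels in log2(RPKM + 1) of EXPA7 and EXPA18 (above the white line) and of the 24 genes of the root hair list in each library. EXPA7, EXPA18, RSL2, RSL4, PRP3, ADF8, XTH14, RHS13 and RHS19 are darkest in both ion libraries, while SCN1, CSLD3 and RBOHC are about as bright there as in control.

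EXPA17, a root expansin of lateral root formation that the factor LBD18 activates, was lower in ion roots. EXPA17 (AT4G01630), on chromosome 4 at 700566 to 701769, stood at 42.8 and 16.7 RPKM in control, 56.1 and 50.7 in nanoparticle and 4.97 and 8.86 in ion. It fell by 1.86 ± 0.44 on the log2 scale, 4.3-fold as a ratio of means (limma adjusted p = 0.0251), and ion and control did not overlap. The ratio was 2.42 without control replicate 1. EXPA14, the other expansin known as an LBD18 target, had 44.2 and 20.2 RPKM in control, 38.8 and 32.3 in nanoparticle and 25.6 and 20.6 in ion and did not pass (-0.36 ± 0.35, limma adjusted p = 0.485). LBD18 itself was at 1.77 and 1.05 RPKM in control and 0.673 and 0.635 in ion (-0.53 ± 0.24, adjusted p = 0.165). LBD16 (0.09 ± 0.31) and LBD29 (0.15 ± 0.45) did not pass either. Of 7 tested genes of the lateral root list of 8, PUCHI rose (1.51 ± 0.26, limma adjusted p = 0.00926), 0 fell and 6 did not pass. That is 14.3% of the 7 called, where 22.6% of all genes were called. The EXPA17 call was lost without either ion library, without either nanoparticle library (adjusted p = 0.0504 for each), without the filter (0.0502) and in a fit of the 2 groups alone (0.0508).

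EXPA16 (AT3G55500) was a low gene, with 17 and 19 reads in control, 18 and 11 in nanoparticle and 0 and 3 in ion. Pooled over libraries and scaled to total reads it was 11.3-fold lower in ion than in control (exact 95% interval 3.58 to 57.4, counting error only). On the log2(RPKM + 1) scale it fell by 0.98 ± 0.24 (limma adjusted p = 0.0301). The call was lost under 9 of 14 alternatives, with the replicate block (-0.98, adjusted p = 0.0575) among them.

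The 13 members that did not pass include several of the most abundant. EXPA1, which acts in lateral root founder cells, stood at 32.5 and 35 RPKM in control and 35.5 and 32.1 in ion, a log2 difference of 0.0 with a 95% interval of -0.4 to 0.4. EXPA9 stood at 58.6 and 43.9 in control and 43.7 and 42.7 in ion (-0.23, interval -0.7 to 0.24), EXPB3 differed by 0.36 (-0.18 to 0.9) and EXPA4 by 0.41 (-0.26 to 1.08). EXPA13 had 21 and 14.7 RPKM in control and 28.6 and 27.7 in ion without overlap, but missed the threshold (0.65 ± 0.21, limma adjusted p = 0.0706). EXPA11 was low in control replicate 2 alone. It stood at 23.8 and 3.59 RPKM in control, 25.1 and 26.8 in nanoparticle and 30.1 and 23.3 in ion (1.37 ± 0.69, adjusted p = 0.193). EXPA3 (3.94 ± 2.47 RPKM in control and 6.21 ± 0.772 in ion) and EXPB1 (4.39 ± 2.86 and 7.33 ± 1.41) had ion values that overlapped the control library with the higher value. EXPA10, EXPA12 and EXPA20 were low, at group means of 0.425 to 3.29 RPKM. Against control replicate 2 alone, EXPA3, EXPA4, EXPA11, EXPA13 and EXPB1 passed (log2 fold changes 0.81 to 2.58). Against control replicate 1 alone EXPA14 (-0.91) and EXPB2 (-1.61) did. Each such fit assumes that the lone library varies like the other groups. More of all genes were called in both fits too, so the added calls are not particular to these members.

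**Figure D5:**
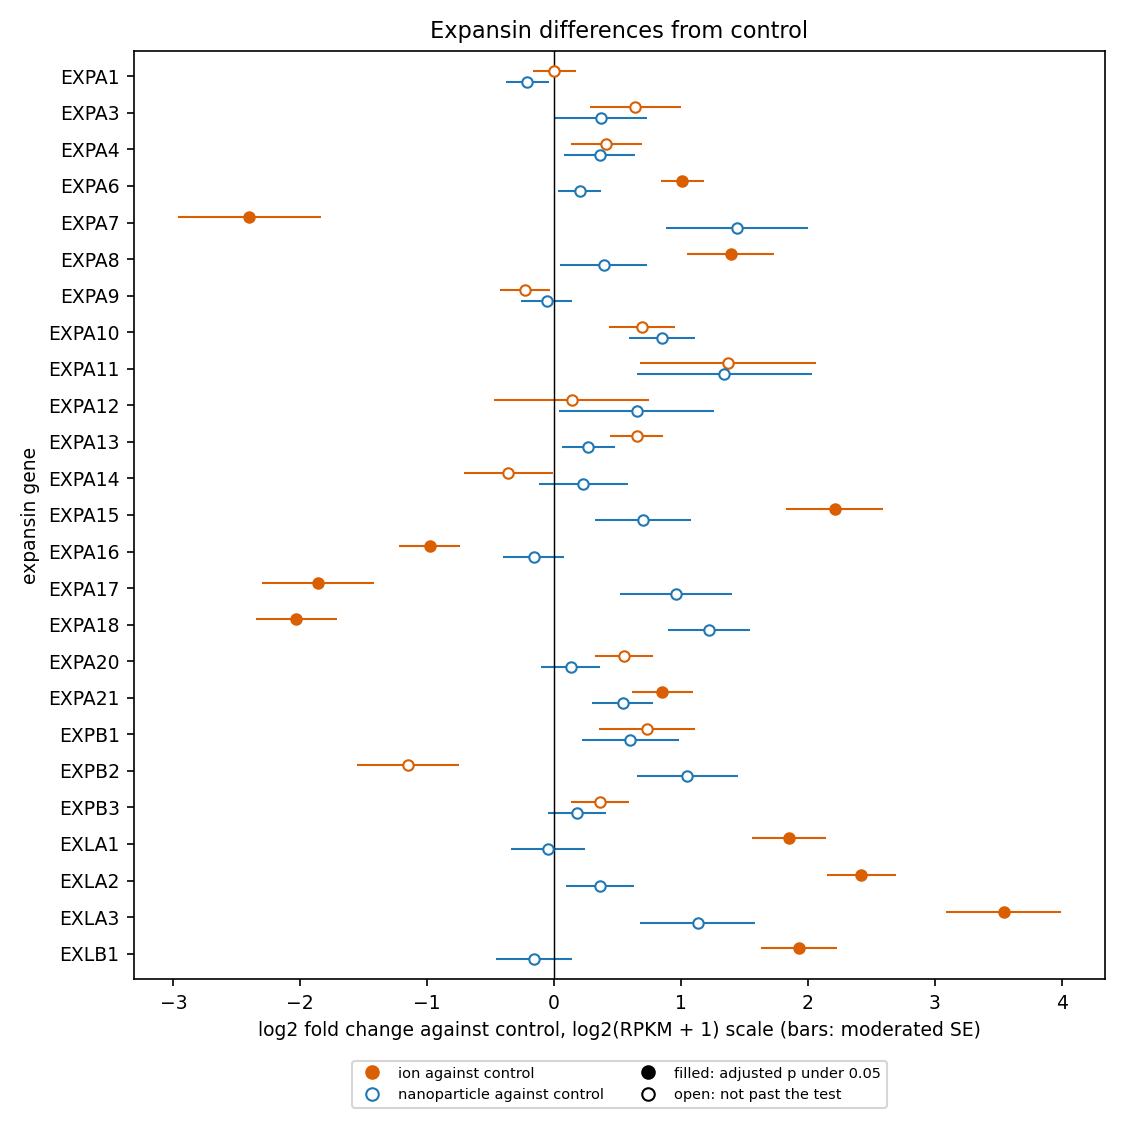
Log2 fold changes against control on the log2(RPKM + 1) scale for the 25 tested expansins, with moderated SE. Filled orange points, 8 to the right and 4 to the left of 0, passed in ion against control. All nanoparticle points are open, between -0.21 and 1.44.

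With aluminium oxide nanoparticles no expansin passed. Of the 25 tested members 0 rose and 0 fell against control by limma, and 0 of all 19648 genes (0%) were called. At an unadjusted p under 0.05 there were 5 members and 1307 genes (6.65%), and limma-voom on the recovered reads also called 0 genes. Fitted differences ran from -0.21 for EXPA1 to 1.44 for EXPA7, with adjusted p of 0.595 or more, and the member median was 0.37 against -0.03 over all genes. In 10 members both nanoparticle libraries lay above both control libraries, and in 1 both lay below, against 20.7% and 25.2% of all genes tested.

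The members with unadjusted p under 0.05 were EXPA18 (1.22, 95% interval 0.45 to 1.99), EXPA10 (0.85, 0.23 to 1.47), EXPB2 (1.05, 0.12 to 1.99), EXPA7 (1.44, 0.1 to 2.77) and EXLA3 (1.13, 0.05 to 2.2). For EXPA18 both nanoparticle libraries were above both controls, 12.4 and 14.7 against 7.23 and 3.72 RPKM. The intervals are wide, and they do not show that nanoparticle and control roots were alike. Against control replicate 2 alone 10 members were called, all higher, where 17.4% of all genes were called (10.3% higher and 7.17% lower), and against control replicate 1 alone 0 were. The 10 were EXPA4, EXPA7, EXPA11, EXPA14, EXPA15, EXPA17, EXPA18, EXPB1, EXPB2 and EXLA3. The count in the nanoparticle group turned on which control library was used.

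Ion and nanoparticle roots differed in 11 of 25 expansins, with 6 higher and 5 lower in ion. Over all genes tested 25.3% were called, 13.3% higher and 11.9% lower, and the member median was 0.18 against 0.13. With median-of-ratios scaling the split over all genes turned from 2622 higher and 2347 lower to 1948 and 2769, and the median of all genes moved from 0.131 to 0.004. In 10 members both ion libraries lay above both nanoparticle libraries and in 7 both lay below, against 45.5% and 30.7% of all genes tested. The higher members were EXLA1 (1.89 ± 0.29, limma adjusted p = 0.00534), EXLA2 (2.05 ± 0.27, 0.00292), EXLA3 (2.42 ± 0.45, 0.0106), EXLB1 (2.09 ± 0.3, 0.00435), EXPA15 (1.51 ± 0.38, 0.029) and EXPA6 (0.81 ± 0.17, 0.0152). Both libraries of ion were above both of nanoparticle for each of the 6. The lower members were EXPA18 (-3.25 ± 0.32, limma adjusted p = 0.00104), EXPA7 (-3.83 ± 0.56, 0.00439), EXPA17 (-2.82 ± 0.44, 0.00536), EXPB2 (-2.21 ± 0.4, 0.00914) and EXPA16 (-0.82 ± 0.24, 0.0492).

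As ratios of means, EXPA7 was 41.4-fold, EXPA18 24.9-fold and EXPA17 7.73-fold lower in ion than in nanoparticle roots, and EXPB2 was 8.54-fold lower. From pooled reads, 13 for EXPA7 and 14 for EXPA18 in ion, the ratios were 42.4 (exact 95% interval 24.6 to 80) and 25.8 (15.2 to 47.6), with counting error only. Without ion replicate 1 the ratio of means was 48.4 for EXPA18 and 5.5 for EXPB2, and without ion replicate 2 it was 19 for EXPB2 and, upward, 4.04 for EXLA3. EXPB2 (AT1G65680), the one beta-expansin called in any comparison as reported, stood at 8.9 and 6.13 RPKM in nanoparticle, 4.53 and 1.96 in control and 0.395 and 1.37 in ion, and it did not pass against control (-1.15 ± 0.4, adjusted p = 0.0788). Without any 1 of the nanoparticle and ion libraries fewer members were called, and fewer of all genes were too. The calls of EXPA6, EXPA15 and EXPA16 were lost without each of these 4 libraries, and those of EXPA7, EXPA18, EXLA1, EXLA2 and EXLB1 held under all 15 alternatives run. EXPB2 was lost without nanoparticle replicate 1 (adjusted p = 0.0639) or ion replicate 1 (0.0708), EXLA3 without nanoparticle replicate 2 (0.08) or ion replicate 2 (0.0728), and EXPA17 without ion replicate 1 (0.0549).

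Genes of the primary wall act beside expansins in wall growth, and the share of their list called was near that of all genes. Of the list 4 of 20 rose and 1 fell in ion against control (25%, where 22.6% of all genes were called), at a median of 0.55 against 0.06 over all genes tested. The xyloglucan endotransglucosylase XTH9 (1.7 ± 0.17, limma adjusted p = 0.00115), the xyloglucan synthesis genes XXT1 (1.36 ± 0.2, 0.00459) and CSLC4 (1.13 ± 0.25, 0.0197) and XTH19 (1.27 ± 0.27, 0.0172) rose, and XTH17, an enzyme known for its part in aluminium binding by the wall, fell (-1.04 ± 0.26, 0.0311). Of 7 tested genes of wall acidification among 14 listed, the proton pump AHA7 rose (0.94 ± 0.23, adjusted p = 0.029), 0 fell and 6 did not pass. AHA7 was low, at 3.93 and 2.82 RPKM in control and 6.6 and 8.14 in ion. The more abundant pumps AHA1 (-0.44 ± 0.24) and AHA2 (-0.69 ± 0.32) leaned lower, and the list median was -0.17. Of the genes that did not pass only RALF1 (0.72 ± 0.53) leaned higher. Against nanoparticle AHA2 was lower in ion (-1.15 ± 0.32, limma adjusted p = 0.0414). In nanoparticle against control 0 genes of any list passed.

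Other cell type markers differed between the groups too. All 5 xylem markers fell in ion roots against control (summed RPKM 55.5 and 56.7 in ion, 209 and 179 in control, 165 and 164 in nanoparticle). Of 8 shoot markers 5 fell (24 and 26.3 in ion, 107 and 135 in control, 55.2 and 142 in nanoparticle), and the 1 listed at 0 in a library was LHCB1.1 in nanoparticle replicate 1. Of 7 root markers WOX5 rose and 6 did not pass against control. Against nanoparticle 3 of the 7 were higher in ion, the root tip genes PLT1 (1.07 ± 0.28, limma adjusted p = 0.0355), PLT2 (1.08 ± 0.23, 0.0162) and WOX5 (1.18 ± 0.21, 0.00931), and all 5 xylem markers and 3 of 8 shoot markers were lower. Over all genes tested, 12.3% were called higher and 10.3% lower in ion against control. Against nanoparticle the shares were 13.3% and 11.9%. The part of these cell type markers in the expansin differences was not tested.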

How the data were processed

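The authors deposited 1 table of RPKM values, 1 column a library; the unit comes from the table's name and was checked against the values. Per the submitters' processing notes, TopHat2 2.0.12, HTSeq 0.6.0 and the build TAIR10 were used, without their roles. Strand handling is not given in the sources used here. 0 columns were left without a sample. RPKM values were turned back into read numbers. Library totals, found with annotated lengths, were 12318429 to 14489392. For each gene the smallest length that made all its values whole reads was then taken, and all 24438 genes came out whole within 1e-06. Read numbers that share a common divisor could be understated by this. A larger multiple was taken where the smallest length fell far short of the annotation (a choice made once the sums had been seen). A floor of 3 reads is 0.207 to 0.244 RPKM in 1 kilobase; floors and intervals cover counting error only.

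limma 3.58.1 in R 4.3.3 was run on log2(RPKM + 1), which understates changes of low genes, over 19648 genes (2 or more libraries at 1 RPKM or higher), with 1 fit for 3 groups, 3 residual degrees of freedom and a mean-variance trend. It was tested on simulated data. Folds are ratios of mean RPKM, and values are mean ± SD of 2 libraries. All 36 members are accounted for: those that passed in a comparison or had a group mean of at least 5 RPKM with their statistics, the rest by counts, ranges or reads. The difference of EXPA10, the root markers PLT1, PLT2 and WOX5 and the genes AHA1, AHA2 and RALF1 were chosen for mention after their values were seen. Outside the family, regulators fixed by name and up to 5 called genes a list are given. Members and lists were chosen with earlier results of these data known. Upstream windows and coordinates come from the RefSeq annotation of TAIR10.1, motifs were searched on both strands, and the deposited table holds no coordinates.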

Additional observations from a re-analysis of the deposited data

How the results depend on the processing

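Of 15 alternatives run, 14 were planned and 1, limma-voom on recovered reads, was chosen after seeing the data in place of a planned count test that was not run because the deposited values are RPKM. No called expansin changed direction under any of them. The 12 calls in ion against control became 2 to 16 without 1 library, the 11 in ion against nanoparticle became 6 to 13, and the 0 in nanoparticle against control became 0 to 10. Over all genes, 4446 calls in ion against control became 2758 in a fit of the 2 groups alone, 2904 with library weights and 1865 to 7732 without 1 library. For ion against nanoparticle 4969 became 8055, 8277 and 1351 to 8101, and for nanoparticle against control 0 became 0 to 3426, the last without control replicate 1. The causes were not tested.

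Single values under the alternatives were listed for 22 of the 25 tested members, without EXPA10, EXPA12 and EXPA20. Among the 22, signs turned only for members that had not passed. With median-of-ratios scaling and quantile normalization EXPA1 was at -0.07 and -0.04 in ion against control, and in ion against nanoparticle EXPA11 was at -0.11 and -0.04 and EXPB1 at 0 and -0.01. Median-of-ratios scaling also gave EXPA4 -0.09 there, and EXPA9 0 and EXLA1 0.02 in nanoparticle against control. Without 1 library, ion against control ranged from -0.07 to 0.07 for EXPA1 and -0.91 to 0.18 for EXPA14. Nanoparticle against control ranged from -0.17 to 0.9 for EXPA3, -0.04 to 0.76 for EXPA4, -0.11 to 0.89 for EXPA8, -0.27 to 0.14 for EXPA9, -0.31 to 0.78 for EXPA14, -0.34 to 0.02 for EXPA16, -0.03 to 0.39 for EXPB3, -0.35 to 0.25 for EXLA1 and -0.46 to 0.14 for EXLB1. Ion against nanoparticle ranged from -0.15 to 0.21 for EXPA11, -0.05 to 0.3 for EXPB1 and 0 to 0.37 for EXPB3.

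Across genes, deviations of same-numbered libraries from their group means correlated at -0.054, -0.164 and 0.075, so no strong shared deviation was seen. With 2 libraries a group, 1 deviant library can dominate these values. They cannot decide whether the replicate numbers mark a shared batch. With the replicate block 10 members passed in ion against control and 10 in ion against nanoparticle, where EXPA16 was lost (-0.82, adjusted p = 0.0865), and over all genes 3733, 0 and 4043 passed in ion against control, nanoparticle against control and ion against nanoparticle. With 2 libraries a group, and a handful of reads behind EXPA7, EXPA16, EXPA18 and EXPA21 in some libraries, small differences were not detectable at this depth.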
